A study of Homo sapiens with 15 samples.

Results

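A set of 1295 FOXA1 binding sites was examined that was listed before induction of extra FOXA1 and listed in neither induced line afterwards. They were mapped by ChIP-seq, in which DNA bound by a protein is pulled down with an antibody and sequenced, in 22Rv1, an established human prostate carcinoma line. They were chosen by the calls in 5 peak lists. Each is a peak of the parental DMSO list that overlapped, by 1 bp or more, a peak in both lists made without doxycycline, and no peak in either list made with doxycycline and DMSO. They made up 18.4% (95% Wilson interval 17.5 to 19.3%) of the 7048 parental DMSO peaks found in both lists without doxycycline, and 4.24% of all 30557 parental DMSO peaks. The share moved with list length: it was 41.7% with the lists of induced cells at equal length, and 4.88% when only the stronger 50% of peaks in each list without doxycycline were used. They are called absent sites below, and the other 5753 of the 7048 are called kept sites.

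All cells were 22Rv1. The genotype label of the parental cells names no transgene. The engineered cells overexpressed Y36C-PHF5A, a form of a splicing factor subunit, in every group, and carried a doxycycline-inducible FOXA1 that was wild type (WT line) or had the C258A change (C258A line). The groups without doxycycline carried both transgenes too and were labelled as receiving DMSO alone. The induced groups received doxycycline with DMSO or with the stereoprobe WX-02-23. The remaining parental groups received WX-02-23, another stereoprobe named WX-02-43, PladB, siFOXA1, a small interfering RNA aimed at FOXA1, or the control RNA siControl. DMSO was used at 0.1% and the stereoprobes at 20 µM, for 3 h. The PladB dose of the parental sample is 100 nM in its own label and 10 nM in the shared protocol. No dose or time of doxycycline is given in the labels, and whether each engineered line is 1 clone is not stated.

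FOXA1 is a forkhead transcription factor. It is called a pioneer factor because it can bind its sites in closed chromatin and make them accessible to other factors. In prostate cells it opens enhancers that the androgen receptor uses, and the amount of FOXA1 is one determinant of which of these enhancers are occupied. The sites examined here bear on where FOXA1 that was already bound is still listed once more FOXA1 is made. The antibody was against FOXA1, and the labels name no tag, so endogenous and induced protein cannot be told apart.

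No condition was sequenced more than once, so a spread between replicates could not be had and no test or p-value is given. Intervals are Wilson 95% intervals, which cover counting error only and treat sites as independent. The read depth behind each list is unknown. The lists differed widely in length. The lists without doxycycline held 8575 (WT) and 12752 (C258A) peaks, and those with doxycycline and DMSO held 31735 and 13299. Of the parental DMSO peaks, 26.3% were called in WT cells without doxycycline, and 63.1% were called in neither line with doxycycline and DMSO. A site is therefore absent when no peak passed the caller's threshold there, which does not show that FOXA1 was gone. The C258A list with doxycycline was shorter than its WT counterpart, and 2320 kept sites were listed in WT cells alone, 37 in C258A cells alone and 3396 in both lines.

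The absent sites had lower scores than the kept ones before induction. The score is the peak caller's own value, which ranks peaks within a list, and no deposited score was below 90. These values belong to the lists that chose the sites, so they are a description only. In the parental DMSO list the absent sites ran from 90.3 to 2412, with a median of 511 (quartiles 295 and 811). The median was 584 for sites kept in WT cells alone and 1098 for sites kept in both lines. For all parental DMSO peaks it was 228, so the absent sites were stronger than most parental peaks and weaker than the kept sites.

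**Figure D1:**
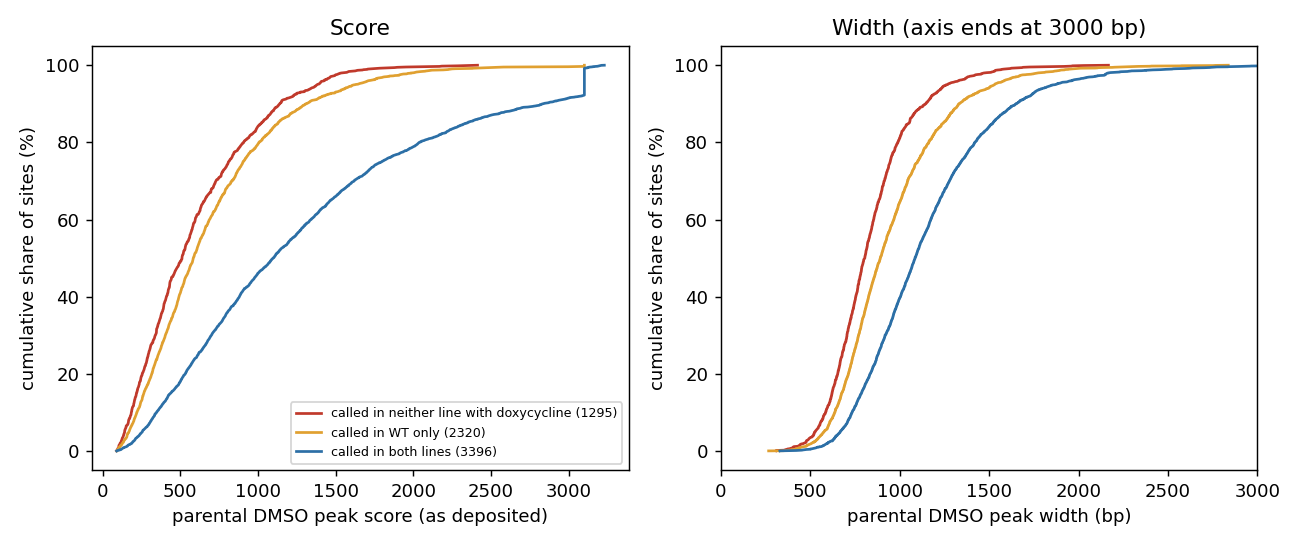
Cumulative share of sites (vertical axis, %) by parental DMSO score (left) and peak width in bp (right), for sites called in neither line with doxycycline, in WT cells alone or in both lines. The curves of the absent sites lie to the left, with medians of 511 in score and 805 bp in width against 1098 and 1086 bp for sites kept in both lines.

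The absent sites were also narrower. Their median width in the parental DMSO list was 805 bp, with a range of 308 to 2167 bp. Sites kept in WT cells alone had a median of 891 bp and sites kept in both lines one of 1086 bp, while all parental DMSO peaks had 682 bp. When the 7048 sites were split into 5 bins by width, 33.5% were absent among the narrowest and 4.41% among the widest. The rule asked for overlap with the parental peak, so width is not independent of it. Sites were not matched for score either, so the widths are a description only.

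In the engineered lines without doxycycline, most absent sites lay in the weaker part of each list. Their median score was 126 in WT cells (highest 484), at a median rank of 66.7% of the way down the list. In C258A cells it was 165 (highest 622), at 56.4% of the way down. Sites kept in WT cells alone had medians of 159 and 245 in these lists, and sites kept in both lines had 264 and 538. Among the 5 bins of the WT score without doxycycline, the share absent fell from 37.5% in the lowest bin to 0.567% in the highest. Among the bins of the C258A score it fell from 44.3% to 0 of 1410 sites, a count that allows a share of up to 0.213%. Each absent site overlapped a different peak in each of these lists, so 1295 distinct peaks stood behind them in either line.

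Few absent sites were near misses of the overlap rule. The gap to the nearest peak with doxycycline and DMSO in either line had a median of 37250 bp, and it was 500 bp or less at 18 sites (1.39%) and 5000 bp or less at 142 (11.0%). Just inside the rule, chr4:47693727-47694511 (hg19 throughout) lay 37 bp and chr9:109556050-109557137 lay 38 bp from a WT peak with doxycycline. Just outside it, chr7:152059447-152060297 overlapped such a peak by 46 bp and chr1:86295780-86296471 by 51 bp. These 4 sites had parental DMSO scores between 288 and 621.

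Against the parental DMSO score, the share absent declined but reached well into strong peaks. The 7048 sites were split into 10 bins of about 705 by this score. The share absent was 34.8% (31.3 to 38.3%) in bin 1, the lowest, and 26.7%, 26.2% and 23.6% in bins 2 to 4. In bins 5 to 7 it lay between 17.2% and 18.6%. In bin 8 it was 13.0% (10.8 to 15.7%), in bin 9 it was 4.96%, and in bin 10 only 5 of 705 sites (0.709%) were absent.

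**Figure D2:**
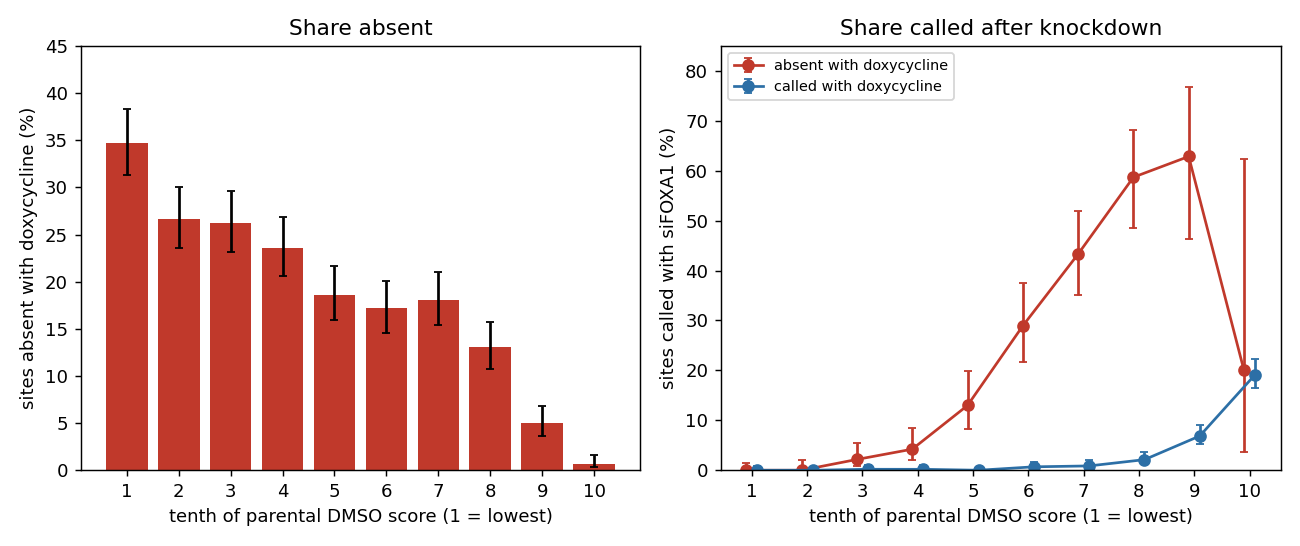
Sites of both lists without doxycycline in 10 bins of parental DMSO score. Left, share absent with doxycycline (%), which goes from 34.8% in bin 1 to 0.709% in bin 10; right, share called with siFOXA1 (%) among absent and kept sites, where absent sites reach 62.9% in bin 9 against 6.87% of kept sites. Whiskers are Wilson 95% intervals.

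WX-02-23 was applied to the induced cells. These 2 lists were not used to choose the sites, but they come from the same 2 lines as lists that were. In WT cells with doxycycline and WX-02-23, 241 of the 1295 absent sites were called (18.6%, 16.6 to 20.8%). Among all parental DMSO peaks the background share was 28.8%, and among the 7048 sites of both lists without doxycycline it was 66.2%. Of the kept sites, 76.9% (75.8 to 78.0%) were called, made up of 58.1% of those kept in WT cells alone and 90.1% of those kept in both lines. In C258A cells with doxycycline and WX-02-23, 165 absent sites were called (12.7%, 11.0 to 14.7%), against a background of 25.6% of parental DMSO peaks and 64.7% of the 7048 sites. Of the kept sites 76.4% were called there, with 1160 of the 2320 kept in WT cells alone and 94.6% of those kept in both lines. So most sites missing with doxycycline and DMSO were missing in the second induced list of each line as well. That list is no repeat of the first, since its cells also received WX-02-23, whose part in these calls was not tested. With all 4 induced lists reduced to their 13299 highest-scoring peaks, 2940 sites were absent, and 12.4% of them were called with WX-02-23 in WT cells and 10.2% in C258A cells.

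**Figure D3:**
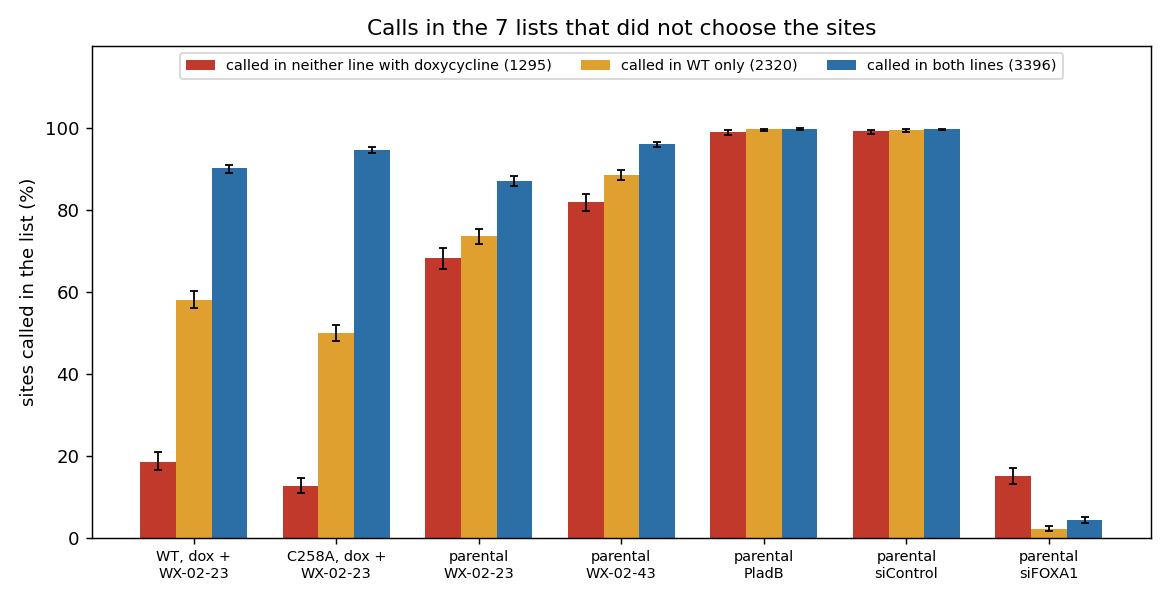
Share of sites called (%) in each of the 7 lists that did not choose the sites, for sites called with doxycycline and DMSO in neither line, in WT cells alone or in both lines, with Wilson 95% intervals. Absent sites have the lowest share of the classes shown in every list but siFOXA1, where theirs is the highest (15.1%). Their shares are 18.6% and 12.7% in the induced WX-02-23 lists and near 99% with PladB and siControl.

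The gap from kept sites held within bins of equal parental score. In bin 1, induced WT cells with WX-02-23 called 22.4% of absent and 61.1% of kept sites. In bin 5 these shares were 15.3% and 75.1%, and in bin 8 they were 13.0% and 83.5%. For C258A cells the pairs were 8.57% and 55.7%, 9.92% and 74.4%, and 20.7% and 85.2%. The share in WT cells thus did not climb with the parental score among absent sites, whereas among kept sites it did. It did climb with the score in the same line without doxycycline, from 14.7% of 529 absent sites in the lowest of 5 bins to 32.4% of 102 in the fourth bin of the WT list. In C258A cells it went from 6.56% of 625 absent sites to 43.3% of 60 over the corresponding bins of the C258A list.

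Calls at absent sites in the 2 lines overlapped in part. A total of 965 absent sites (74.5%) were called with WX-02-23 in neither line, 165 (12.7%) in WT cells alone, 89 (6.87%) in C258A cells alone and 76 (5.87%) in both. Of the 241 called in WT cells, 31.5% (26.0 to 37.7%) were called in C258A cells too, against 8.44% (6.91 to 10.3%) of those not called in WT cells. The peaks found there were weak. Their median score was 124 in WT cells and 111 in C258A cells, at 72.0% and 81.4% of the way down those lists, whereas peaks at sites kept in WT cells alone had medians of 170 and 137 and those at sites kept in both lines had 337 and 321. Other parental DMSO peaks missing from both induced DMSO lists were called less often. The shares were 9.19% in WT and 6.73% in C258A cells for the 3090 found in 1 of the lists without doxycycline, and 4.11% and 1.42% for the 14908 found in neither. Those peaks were weaker in the parental DMSO list, with median scores of 298 and 155.

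In parental cells nearly all absent sites were called with PladB and siControl. PladB called 99.0% of them and siControl 99.2%, against backgrounds of 88.2% and 88.1% of parental DMSO peaks and 99.7% and 99.6% of kept sites. Both libraries together called 1274 of the 1295.

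The parental stereoprobe lists called fewer of them. With WX-02-23, 883 absent sites were called (68.2%, 65.6 to 70.7%), against 81.5% of kept sites, 79.1% of the 7048 sites and 47.2% of all parental DMSO peaks. With WX-02-43, 1061 were called (81.9%, 79.7 to 83.9%), against 92.9% of kept sites and a background of 55.5%. At equal parental score the difference was smaller in most bins and turned round in many. With WX-02-23, absent sites were called more often than kept sites in bins 3, 5 to 8 and 10. They were called less often in bins 1, 2, 4 and 9. With WX-02-43 they were called more often in bins 3 and 4, and every absent and kept site was called in bins 7 to 10. In bin 1, WX-02-23 called 27.3% of absent and 34.8% of kept sites, and WX-02-43 called 36.3% and 48.9%. In bin 2 WX-02-23 called 47.9% and 51.8%, and WX-02-43 called 68.1% and 77.9%. In bin 3 the pairs were 64.9% and 63.5% for WX-02-23 and 93.5% and 93.1% for WX-02-43. In bin 4 they were 75.9% and 79.4% for WX-02-23 and 97.6% and 97.0% for WX-02-43, and in bin 6 they were 94.2% and 90.4% and 99.2% and 99.8%. A total of 244 absent sites (18.8%) were missing with WX-02-23 alone, 66 (5.10%) with WX-02-43 alone and 168 (13.0%) with both. Among kept sites the corresponding shares were 13.7%, 2.33% and 4.73%.

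The siFOXA1 list, which was not used to choose the sites, gave the opposite order. It held 3018 peaks in all, and 195 absent sites overlapped one of them (15.1%, 13.2 to 17.1%). The share was 3.55% (3.10 to 4.06%) for kept sites, 2.20% for those kept in WT cells alone and 4.36% for those kept in both lines. The background was 3.92% of parental DMSO peaks and 5.66% of the 7048 sites. A raised share was not particular to the absent sites. Among other parental DMSO peaks missing from both induced DMSO lists, 318 of the 3090 found in 1 list without doxycycline had a siFOXA1 peak (10.3%). Of the 14908 found in neither list without doxycycline, 3.17% did. Read the other way, 195 of the 399 sites with a siFOXA1 peak were absent after doxycycline (48.9%, 44.0 to 53.8%), against 1100 of the 6649 without one (16.5%, 15.7 to 17.5%). With the 4 induced lists at equal length the siFOXA1 share was 8.03% for absent and 3.97% for kept sites, so the order was retained and the difference was smaller. How much FOXA1 remained after knockdown was not analysed here.

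By parental score, the difference was wider in bins 5 to 9 and smaller elsewhere. In bins 1 and 2, which held 245 and 188 absent sites, no absent or kept site had a siFOXA1 peak, counts that allow up to 1.22% and 1.60% of absent sites. In bin 3 the shares were 2.16% of 185 absent and 0.192% of kept sites, and in bin 4 they were 4.22% of 166 and 0.186%. In bin 5, 17 of 131 absent sites had a siFOXA1 peak (13.0%), against 0 of 574 kept sites, a count that allows up to 0.523%. In bin 7 the shares were 43.3% (35.0 to 52.0%) and 0.867%. In bin 8 they were 58.7% (48.5 to 68.2%) and 2.12%, and in bin 9 they were 62.9% (46.3 to 76.8%) and 6.87%. In bin 10 only 5 sites were absent, of which 1 had a siFOXA1 peak, and 19.1% of kept sites did. Among sites with a siFOXA1 peak, 35 of 39 were absent in bin 6, 55 of 60 in bin 7, 54 of 67 in bin 8, 22 of 68 in bin 9 and 1 of 135 in bin 10. Sites without a siFOXA1 peak were absent in 12.9%, 11.2%, 5.96%, 2.04% and 0.702% of cases in the same bins. In bins 8 and 9, most absent sites were thus ones still listed after knockdown.

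The 195 absent sites with a siFOXA1 peak differed from the other 1100 in the parental lists and resembled them without doxycycline. Their median parental DMSO score was 1069, against 431 for the other 1100 and 820 for kept sites. With siControl the medians were 1313, 486 and 820. With WX-02-23 all 195 were called, at a median score of 762, against 62.5% of the other 1100 at 203. With WX-02-43 all 195 were called too, at 813 against 219. These groups were not matched for parental DMSO score. In bins 7 and 8 of that score, parental WX-02-23 called 96.9% and 97.8% of all absent and 95.1% and 96.6% of kept sites. WX-02-43 called every absent and kept site in those bins. Without doxycycline the medians of absent sites with and without a siFOXA1 peak were 125 and 126 in WT cells and 168 and 164 in C258A cells. The median score of kept sites was 203 and 371 there. The median of the 195 sites was thus above that of kept sites in the parental lists and below it in both engineered lists. The lists without doxycycline helped choose the sites, and absent sites of either group lay in their weaker part. The low medians there, and their likeness, are therefore a description only.

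**Figure D4:**
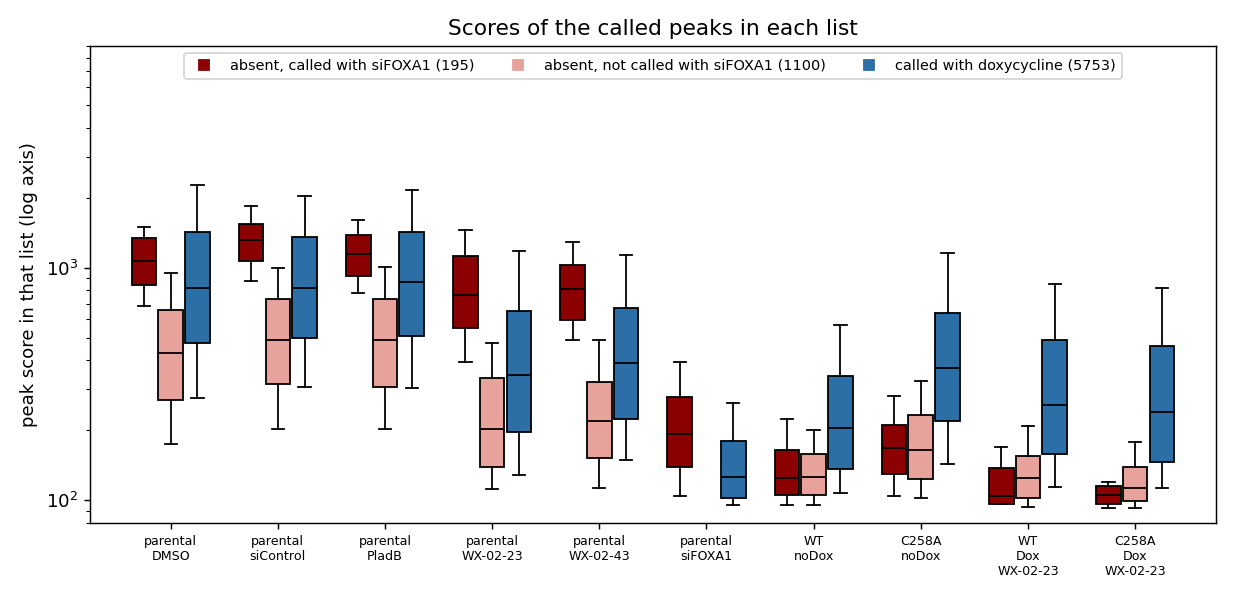
Scores of the called peaks in 10 lists (log axis; boxes are quartiles with the median, whiskers run from the 10th to the 90th percentile) for absent sites with and without a siFOXA1 peak and for kept sites. Scores compare sites within a list only. Absent sites with a siFOXA1 peak are high in all parental lists. Without doxycycline, in lists that helped choose the sites, they are close to the other absent sites, with medians of 125 and 126 in WT cells.

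Within the siFOXA1 list itself, the peaks at absent sites were stronger than those at kept sites. Their median score was 193 (range 90.9 to 578, median rank 815 of 3018), against 125 (median rank 1647) for the 204 kept sites with a siFOXA1 peak. In the parental DMSO list the order of these groups was the reverse, 1069 against 2810. The absent ones were also narrower, with a median width of 834 bp against 1452 bp. With doxycycline and WX-02-23, 8 of the 195 were called in WT cells (4.10%, 2.09 to 7.89%) and 18 in C258A cells (9.23%, 5.92 to 14.1%). For the other 1100 absent sites the shares were 21.2% (18.9 to 23.7%) and 13.4% (11.5 to 15.5%). Other parental DMSO peaks, those not in both lists without doxycycline, were described in the same way. Of the 800 with a siFOXA1 peak, 10 (1.25%) were called with doxycycline and DMSO in either line, against 24.2% of the 22709 without one. These calls come from lists that the rule used, and the groups were not matched for score, so they are a description only.

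The absent sites with the highest parental DMSO scores are given one by one, and 1 of these 5 had a siFOXA1 peak. Chromosome 8 was left out of the named sites, and nearby genes were not analysed here. The highest parental DMSO score, 2412, was at chr1:142949115-142950372, rank 502 of the parental list. It scored 2180 with PladB, 2185 with siControl, 1229 with WX-02-43, 910 with WX-02-23 and 348 with siFOXA1, then 364 in WT and 296 in C258A cells without doxycycline. It was called in none of the 4 induced lists, and the nearest induced DMSO peak lay 5618 bp away.

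The next was chr11:27222608-27224120, with a parental DMSO score of 2345. It scored 2799 with siControl, 1766 with WX-02-23 and 1267 with WX-02-43, but only 107 and 152 in WT and C258A cells without doxycycline. It was called in WT cells with doxycycline and WX-02-23 at a score of 149, and it lay 2284 bp from a WT peak with doxycycline and DMSO. This site was not called with siFOXA1.

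The site chr1:208375733-208377692 had a parental DMSO score of 2284 and a score of 400 with parental WX-02-23. It scored 132 in WT and 202 in C258A cells without doxycycline, and among the induced lists only C258A cells with WX-02-23 called it, at 98.7. The sites chr11:519046-520531 and chr12:94207496-94208883 had parental DMSO scores of 2183 and 2167. With parental WX-02-23 they differed, at 2482 and 444. Without doxycycline they scored 102 and 91.3 in WT cells and 161 and 164 in C258A cells, and neither was called in any induced list or with siFOXA1. All 5 sites ranked 654 or better among 30557 parental DMSO peaks, and all but the first scored between 91.3 and 202 in both lists without doxycycline.

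Sites called with WX-02-23 in induced cells were named in the same way. For WT cells alone, the strongest after chr11:27222608-27224120 were chr5:72251196-72253362 (parental DMSO score 1896) and chr4:109513298-109514445 (1642), with scores of 137 and 97.7 in the WT list with WX-02-23. For C258A cells alone, the strongest after chr1:208375733-208377692 were chr7:121924046-121925217 (1497) and chr11:96144057-96145065 (1496), with scores of 137 and 103 in the C258A list. For both lines they were chr7:91387591-91389213 (1490), chr4:144021426-144022236 (1464) and chr20:11613555-11614521 (1372). Their scores were 132, 169 and 112 in WT cells and 135, 104 and 120 in C258A cells. The last 2 of these were also called with siFOXA1, at 338 and 422.

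For comparison, the strongest site kept in both lines was chr3:195586247-195588120, with a parental DMSO score of 3228. It scored 1718 and 852 without doxycycline in WT and C258A cells, 3219 and 1338 with doxycycline and DMSO, and 2237 and 1589 with doxycycline and WX-02-23. It was called in every list except siFOXA1. The next, chr7:84158267-84159820, scored 174 in WT cells without doxycycline, near the median of 179 for all 7048 sites in that list. With doxycycline and DMSO it scored 1279 in WT cells. In C258A cells without doxycycline it scored 1368, above the highest score of absent sites there, 622.

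Chosen after their values were seen, 2 further absent sites with a siFOXA1 peak follow chr1:142949115-142950372 in parental score. The site chr2:188988298-188989032 scored 1952 in parental DMSO and 469 with siFOXA1, then 410 and 344 in WT and C258A cells without doxycycline. The site chr1:90527898-90529041 scored 1784 in parental DMSO and 177 with siFOXA1, then 116 and 159 in WT and C258A cells. Both parental stereoprobe lists called them, and none of the 4 induced lists did.

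The absent sites were found on all 24 chromosomes, at unequal shares. The share absent among sites in both lists without doxycycline was 31.3% (23.0 to 41.0%) on chromosome 19, 30.6% (23.2 to 39.2%) on chromosome 20, 30.1% (22.7 to 38.7%) on chromosome X and 27.4% (19.0 to 37.7%) on chromosome 22. On chromosome Y it was 8 of 23 sites. The lowest shares were 10.9% (7.53 to 15.5%) on chromosome 13 and 14.0% (11.4 to 17.1%) on chromosome 7, and chromosome 1 held the most absent sites, 103 of 655 (15.7%). Intervals for chromosomes Y, 19, 20, X, 22 and 10 lay above the 18.4% of all sites, that of chromosome 10 by the least (18.5 to 27.7%). Those for 13 and 7 lay below it. The 24 intervals were not adjusted for their number, and chromosomes Y and 10 are not part of the split by score below.

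**Figure D5:**
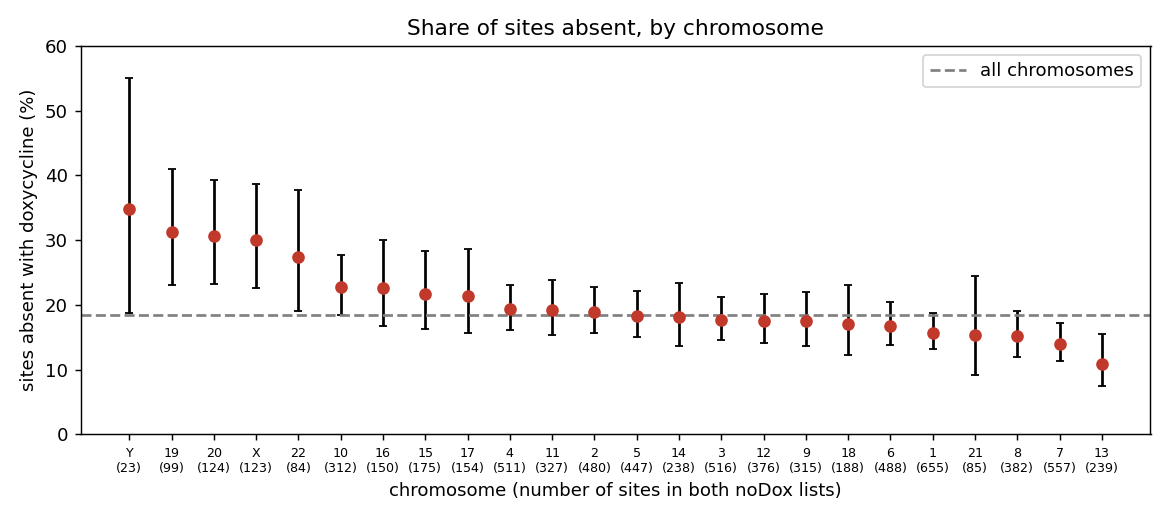
Share of sites absent with doxycycline (%) on each chromosome, in descending order, with Wilson 95% intervals and the number of sites in both lists without doxycycline in parentheses. The dashed line is the share over all chromosomes, 18.4%; the intervals of Y, 19, 20, X, 22 and 10 lie above it and those of 13 and 7 below.

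The chromosome differences depended on score for some chromosomes. Among sites at or below the median parental score of 745, 53.2% (39.2 to 66.7%) were absent on chromosome 19, 40.3% on 20, 40.5% on 22 and 33.8% (24.0 to 45.1%) on X, against 26.0% of all such sites, a value that the interval for X held. On chromosomes 13 and 7 the shares there were 12.2% (7.39 to 19.4%) and 19.2% (14.8 to 24.4%). Above that score the shares were 11.5% (5.40 to 23.0%) on chromosome 19 and 14.3% (6.72 to 27.8%) on 22, with intervals that held the 10.8% of all such sites. The intervals for chromosomes 13 (5.62 to 16.2%) and 7 (6.63 to 13.3%) held it too. They were 21.0% (12.7 to 32.6%) on chromosome 20 and 24.5% (14.6 to 38.1%) on X, with intervals above it. Of the 37 absent sites on X, 11 had a siFOXA1 peak. For WX-02-23 in the induced lines, 4 of these 37 were called in WT cells and 1 in C258A cells.

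Absent sites lay somewhat farther from other peaks. The median distance to the nearest other parental DMSO peak was 26067 bp for absent and 20398 bp for kept sites. For absent sites with a siFOXA1 peak it was 41407 bp, and for the others 24273 bp. The distance to the nearest WT peak with doxycycline and DMSO that did not overlap the site was 37753 bp for absent and 22445 bp for kept sites. Along the chromosome, the next site of the 7048 was also absent for 22.9% of absent sites, against 18.4% of all, and 5 was the largest number of absent sites in a row. One of the 6 such runs was at chr10:80489512-80847063, which spans 357552 bp. The WT list with doxycycline and DMSO was used by the rule, and the rule also set which neighbours count as absent. Sites were not matched for score or chromosome, so these distances and runs are a description only.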

How the data were processed

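FOXA1 ChIP-seq gave 12 peak lists, 1 per library. The 3 input libraries were not used here. Per the submitters' processing notes, bcl2fastq and Bowtie2 were used with build hg19. Peak names in the deposited files begin with MACS. The caller's version, threshold and control are not given in the sources used here. The deposited score of each peak is the authors' own value, with no stated definition, and was used only within a list. Starts were read as counted from 0 and are printed from 1.

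Overlaps of 1 bp or more were computed with pandas 2.3.3 and numpy 2.4.6 and checked against bedtools 2.31.1 and on simulated lists with planted overlaps. Wilson intervals used scipy 1.17.1 and figures matplotlib 3.10.9. Where a site overlapped several peaks of a list, the one with the longest overlap gave the score. Read depth is unknown. No test was made, because each condition has 1 library.

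Named sites, chromosome 8 aside, are the 5 absent sites with the highest parental DMSO score, the 3 highest for each combination of WX-02-23 calls in the induced lines, the strongest kept in both lines, and those nearest the overlap threshold. The sites and comparisons were chosen with earlier results of these data known. Sequences and nearby genes were not analysed here, because the reference tables used are of GRCh38. Alternatives changed the overlap, list length, score threshold, chromosomes and anchor list. The one that leaves out sites with a siFOXA1 peak, and all for the siFOXA1 shares, were chosen after seeing the data.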

Additional observations from a re-analysis of the deposited data

Results flagged for a closer look

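Over all 7048 sites of both lists without doxycycline, the share called moved in opposite directions when WX-02-23 replaced DMSO in the induced lines. In WT cells it changed by -14.9 percentage points, from 81.1% with DMSO to 66.2% with WX-02-23. In C258A cells it changed by 16.0 points, from 48.7% to 64.7%. Each value rests on 1 library, and the difference between the lines was not tested. The list lengths moved the same way, down from 31735 to 25849 peaks in the WT line and up from 13299 to 20609 in the C258A line, and their part in the result was not tested. The absent sites are missing from both induced DMSO lists by choice, so their own change, to 18.6% and 12.7%, can only be upward.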

How the results depend on the processing

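Of 106 alternative values for 12 results, 53 stayed within the interval of the main value or within 1.5 times its count, and 53 moved. All 12 stayed with autosomes only and with gaps of up to 500 bp. The larger siFOXA1 share of absent than of kept sites, and their smaller share called with WX-02-23 in each induced line, held under each alternative run on them. The smaller WX-02-23 share compares classes set apart by calls in the same 2 lines, so it is a description only. In the order of number absent, share absent, median score, median width, absent sites called with WX-02-23 in WT and in C258A cells, with parental WX-02-23 and WX-02-43, and kept sites called with WX-02-23 in WT and in C258A cells, the moved values follow.

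With a reciprocal overlap of 50% they were 704, 24.6%, 391 and 711 bp, then 10.2% in C258A cells, 58.9% and 71.9% in the parental lists, and 65.6% and 64.0% of kept sites. The siFOXA1 shares became 12.6% and 0.510%. With the 4 induced lists at 13299 peaks they were 2940, 41.7% and 831 bp, then 12.4%, 10.2%, 84.8% with WX-02-43 and 69.4% of kept sites in WT cells. With both lists without doxycycline at 8575 peaks they were 853, 14.0%, 577 and 838 bp, then 16.2% in C258A cells, 73.2%, 87.3%, 78.3% and 79.0%. With the upper 50% of parental DMSO peaks they were 16.8%, 580 and 844 bp, then 76.3%, 91.1%, 78.0% and 77.9%. With the upper 50% of both lists without doxycycline they were 180, 4.88%, 730.0 and 894 bp, then 27.8%, 23.9%, 81.7%, 93.9%, 85.1% and 86.5%. With WT peaks without doxycycline as the sites, the median width was 416 bp, since those peaks are narrower. Without sites that have a siFOXA1 peak they were 16.5% and 431, then 21.2% in WT cells, 62.5% and 78.7%. Shorter induced lists raise the number absent, and shorter lists without doxycycline lower it, by construction. Causes of the other shifts were not tested. No paired analysis was possible because each group has 1 library and the labels carry no replicate numbers.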
